A study of Mus musculus with 7 samples.

Results

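The genes that encode voltage-gated sodium and calcium channels were examined in nuclei of cultured BB-p53n OPCs, the cells from which the gliomas of the study were grown. The members were chosen by symbol, as every gene named Scn followed by a number and the letter a or b, or with a symbol that starts with Cacna1, Cacna2d, Cacnb or Cacng. This gave 40 of the 33696 genes in the matrix, 14 for sodium channels and 26 for calcium channels. BB-p53n OPCs are oligodendrocyte progenitor cells, selected by their surface PDGFRα from brain tissue of C57BL/6 mouse pups, males and females. Their *Trp53* fl/fl alleles are cut by the Cre of a PDGFB-IRES-CRE retrovirus, given in culture, which also drives PDGFB. How many of the nuclei had been infected or had lost *Trp53* was not tested, OPCs without the virus were not analysed here, and the brain samples with early (3) or late (3) tumors were not analysed here. There was 1 library, so there is no replicate, no test between groups of nuclei was run, and every interval given covers counting error only. Levels are UMIs of a gene scaled to 1000000 UMIs in all (CPM) summed over 8917 nuclei with 2000 to 8000 detected genes, which hold 141138093 UMIs with a median of 13771 per nucleus.

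Voltage-gated sodium channels open when the membrane depolarizes and carry the inward current of the action potential. Their pore is a single large alpha subunit, accompanied by beta subunits that adjust gating and act as adhesion molecules. Voltage-gated calcium channels have a pore-forming alpha1 subunit of the Cav1 (L-type), Cav2 (P/Q-, N- and R-type) or Cav3 (T-type) class. The alpha1 subunits of Cav1 and Cav2 assemble with a cytoplasmic beta subunit, which brings the channel to the membrane, and an extracellular alpha2delta subunit. Of the gamma genes, *Cacng1* encodes the gamma subunit of the muscle channel and *Cacng6* a relative of it. *Cacng2*, *Cacng3*, *Cacng4*, *Cacng5*, *Cacng7* and *Cacng8* encode transmembrane AMPA receptor regulatory proteins (TARPs). OPCs are the glial cells known to receive synapses from neurons and to carry sodium and calcium currents, which fade as they become oligodendrocytes.

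For the label, the OPC transcription factor genes *Olig1* and *Olig2* stood at 618 and 293 CPM and *Pdgfra* at 256 CPM. Markers of other cell types ran from no UMI to well counted. Of the microglial genes, *C1qa* had no UMI and *P2ry12* had 741, of the endothelial genes, *Cldn5* had none and *Pecam1* had 770, and of the astrocyte genes, *Aqp4* had 4 and *Slc1a2* had 1939, while the pericyte or fibroblast genes had 3 (*Dcn*) to 25 (*Col1a1*). *Trp53* was counted at 24.8 CPM (95% exact Poisson interval 24.0 to 25.6), which does not check the deletion, since counts are summed over the gene and do not show whether the removed exons were transcribed. UMIs of mouse *Pdgfb* came to 0.531 CPM (0.418 to 0.666), and the retroviral transcript was not analysed here.

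The stretch upstream of the transcription start is shown for the members that differed at least 2 times between nuclei with no *Pdgfra* UMI and nuclei with 2 or more, described below. Of these 8 genes, 4 have a window of 250 bases before the GENCODE canonical start that overlaps no annotated exon, and 3 of them are shown, *Cacna1g*, which was higher in nuclei without *Pdgfra*, and *Cacna2d2* and *Cacng1*, which were lower. They were read from GRCm39, the build of the files, and are written 5′ to 3′ on the strand of the gene, as chr11:94365231-94365480 on the minus strand for *Cacna1g*, chr9:107276561-107276810 on the plus strand for *Cacna2d2* and chr11:107607409-107607658 on the minus strand for *Cacng1*. Capitals mark the GC box GGGCGG, the letters bound by Sp1, and the E-box CAGCTG, the letters bound by some basic helix-loop-helix factors, searched on both strands, where a GC box reads CCGCCC if it lies on the other strand.
Cacna1g: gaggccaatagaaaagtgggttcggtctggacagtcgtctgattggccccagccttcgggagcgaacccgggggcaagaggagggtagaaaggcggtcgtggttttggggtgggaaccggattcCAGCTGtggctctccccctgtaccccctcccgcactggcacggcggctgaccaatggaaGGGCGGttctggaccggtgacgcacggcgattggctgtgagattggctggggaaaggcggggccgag
Cacna2d2: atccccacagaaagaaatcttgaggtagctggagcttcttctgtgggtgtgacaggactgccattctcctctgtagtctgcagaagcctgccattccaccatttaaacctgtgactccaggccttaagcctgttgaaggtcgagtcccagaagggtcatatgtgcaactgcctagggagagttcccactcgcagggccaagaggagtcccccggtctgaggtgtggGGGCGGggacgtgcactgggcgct
Cacng1: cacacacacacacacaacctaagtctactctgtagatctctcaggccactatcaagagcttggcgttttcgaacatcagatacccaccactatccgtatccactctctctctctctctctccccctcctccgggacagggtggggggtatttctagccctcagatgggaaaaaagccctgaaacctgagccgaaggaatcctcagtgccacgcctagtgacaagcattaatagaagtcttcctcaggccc
The window of *Cacna1g* is 64.4% G or C with 18 CpG dinucleotides, 1 GC box and 1 E-box, that of *Cacna2d2* is 56.8% with 6 CpG and 1 GC box, and that of *Cacng1* is 52.0% with 6 CpG and neither motif. The GC box stood in 47.5% of the 40 member windows against 36.3% of 21431 windows of the same length, taken from protein-coding genes. The E-box stood in 8 member windows, or 20%, against 11.8%. The median base content was 55.8% G or C for the members and 53.2% for all these protein-coding genes. Which start a nucleus used is not shown by counts summed over a gene.

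BB-p53n OPC nuclei held transcripts of nearly the whole family at very unequal levels. Of the 40 members, 38 had at least 1 UMI, 15 reached 10 CPM, 5 reached 100 CPM and 15 stayed under 1 CPM. Together they made up 151907 UMIs, or 1076 CPM (1071 to 1082), which is 0.108% of all UMIs, and the first 5 genes held 71.4% of them. These 5 were the L-type pore *Cacna1c* at 233 CPM (230 to 235), the TARP *Cacng4* at 180 CPM (178 to 182), the alpha2delta subunit *Cacna2d1* at 136 CPM (134 to 138), the P/Q-type pore *Cacna1a* at 111 CPM (109 to 113) and the sodium channel *Scn8a*, which encodes Nav1.6, at 108 CPM (107 to 110). The intervals of *Cacna1a* and *Scn8a* overlap, so their order is not set by these counts. *Cacna1c* had a UMI in 86.5% of nuclei (95% exact binomial interval 85.8 to 87.2), and 705 genes of the matrix had more UMIs.

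**Figure D1:**
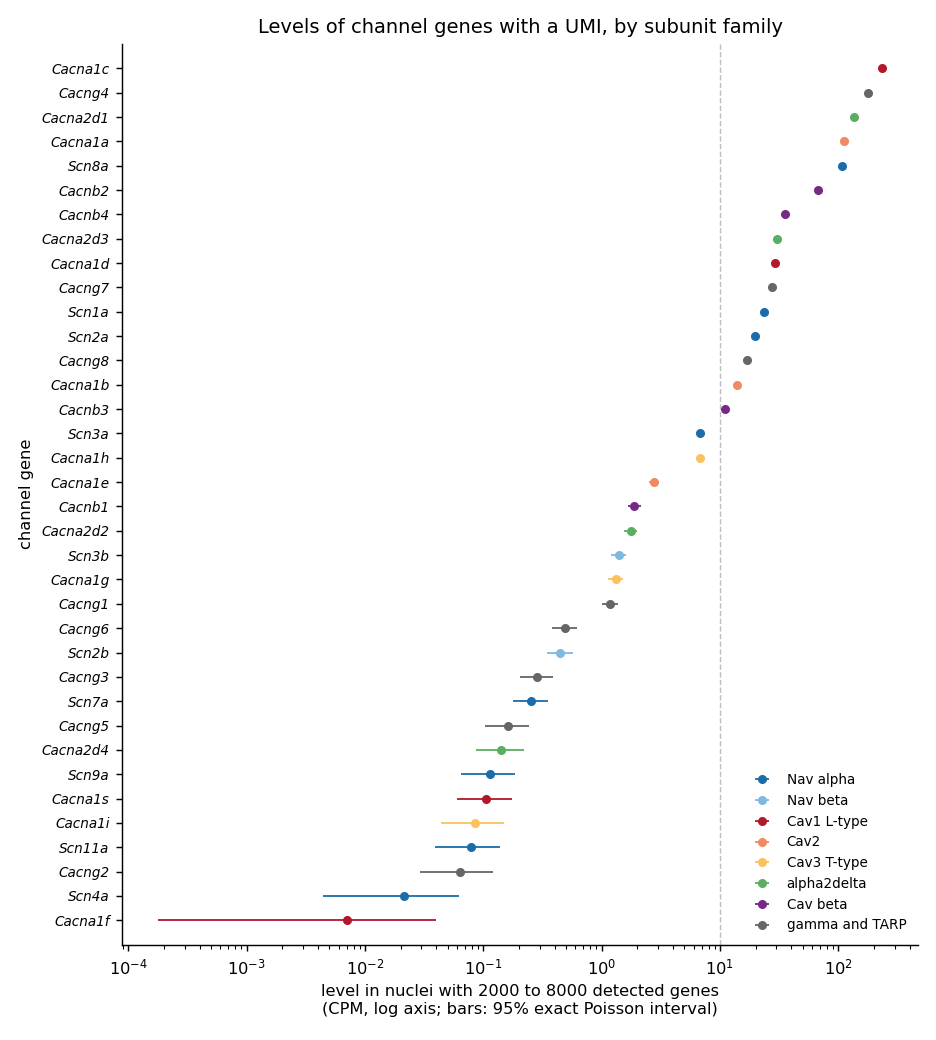
Levels of channel genes with a UMI, in CPM on a log axis, each point 1 gene colored by subunit family with its 95% exact Poisson interval, and a dashed line at 10 CPM. *Cacna1c* stands highest at 233 CPM, 15 genes lie to the right of the line, and *Scn4b* and *Scn10a*, with no UMI, are not drawn.

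Among sodium channel pores, *Scn8a* held 66.8% of the UMIs (66.1 to 67.4). *Scn1a* (Nav1.1) stood at 23.7 CPM (22.9 to 24.5), *Scn2a* (Nav1.2) at 19.7 CPM (19.0 to 20.5) and *Scn3a* (Nav1.3, the form of the embryonic brain) at 6.78 CPM (6.36 to 7.22). Others were at or near the floor. *Scn7a*, the atypical sodium-sensing channel, had 36 UMIs, and the sensory neuron genes *Scn9a* and *Scn11a* had 16 and 11. The skeletal muscle gene *Scn4a* had 3 UMIs and the sensory neuron gene *Scn10a* none, where a count of 0 allows up to 0.0213 CPM (3 counts over all kept nuclei). Of the beta subunits, *Scn3b* stood at 1.40 CPM (1.21 to 1.61), *Scn2b* had 63 UMIs and *Scn4b* 0. Summed, the 10 pore genes came to 162 CPM (160 to 164).

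Among calcium channel pores, *Cacna1c* (Cav1.2) held 88.8% of the Cav1 UMIs and *Cacna1a* (Cav2.1) 87.0% of the Cav2 UMIs. *Cacna1d*, the Cav1.3 pore that opens at lower voltages, stood at 29.3 CPM (28.4 to 30.2), the N-type pore *Cacna1b* at 13.8 CPM (13.2 to 14.4) and the R-type pore *Cacna1e* at 2.78 CPM (2.51 to 3.07). The skeletal muscle pore *Cacna1s* and the retinal pore *Cacna1f* had 15 UMIs and 1 UMI. The T-type pores came to 8.16 CPM in all (7.69 to 8.64), of which *Cacna1h* held 82.7% at 6.75 CPM (6.32 to 7.19), while *Cacna1g* stood at 1.33 CPM (1.14 to 1.53) and *Cacna1i* had 12 UMIs. The intervals of *Cacna1h* and *Scn3a* overlap.

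The accessory subunits were as uneven. *Cacna2d1* held 80.7% of the alpha2delta UMIs, followed by *Cacna2d3* at 30.6 CPM (29.7 to 31.5) and *Cacna2d2* at 1.77 CPM (1.56 to 2.01), and *Cacna2d4*, the retinal form, had 20 UMIs. Of the beta subunits, which traffic the pore to the membrane, *Cacnb2* stood at 66.8 CPM (65.5 to 68.2), *Cacnb4* at 35.5 CPM (34.6 to 36.5), *Cacnb3* at 11 CPM (10.5 to 11.6) and *Cacnb1*, the muscle form, at 1.89 CPM (1.67 to 2.13). *Cacng4* held 79.4% of the gamma and TARP UMIs. *Cacng7* stood at 27.7 CPM (26.8 to 28.5) and *Cacng8* at 16.9 CPM (16.3 to 17.6), whereas the muscle gene *Cacng1* was at 1.18 CPM (1.01 to 1.38), *Cacng6* had 69 UMIs, *Cacng3* 40, *Cacng5* 23 and the prototype TARP *Cacng2* (stargazin) 9. The levels of *Cacna2d3*, *Cacna1d* and *Cacng7* follow each other with overlapping intervals between neighbors.

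These are levels per gene, and much of nuclear RNA is unspliced, so that long genes can gather more UMIs. Per kilobase of gene span the order was another one. *Cacng4*, which spans 62.5 kb, led at 2.88 CPM per kb, followed by *Cacnb3* (13.7 kb) at 0.804, *Cacng7* at 0.757, *Cacng8* at 0.662 and *Scn8a* at 0.614 CPM per kb. *Cacna1c*, which spans 609.7 kb, stood in place 6 at 0.382 CPM per kb, beside *Cacna1a* at 0.367, and *Cacna2d3*, the longest at 817.7 kb, stood in place 21 at 0.0374 CPM per kb. All 40 members are protein-coding genes in GENCODE vM39, and none overlaps another gene of the matrix on its own strand. *Cacna1c* overlaps *Dcp1b* on the opposite strand.

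Most nuclei carried a few of these genes at once. With each nucleus thinned at random to 5000 UMIs, which 8760 nuclei reached, the median nucleus had a UMI from 4 members, with quartiles of 3 and 5 and a maximum of 10, and 1.07% had none. The spread between nuclei differed between genes. The variance of the thinned count over its mean was 2.38 for *Cacnb2*, higher than for 99% of the 12313 genes with at least 100 thinned UMIs, whose median was 1.04. It was 1.37 for *Cacna1c*, 1.33 for *Cacna2d3* and 1.18 for *Cacng4*. Before thinning, *Cacnb2* had a UMI in 34.1% of nuclei, with up to 28 in a nucleus, and the 892 nuclei with the most held 61.6% of its UMIs, against 30.7% for *Cacng4*.

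*Pdgfra*, the receptor by which the cells had been isolated, was then used to divide the nuclei. No *Pdgfra* UMI was found in 2341 nuclei (26.3%), 1 UMI in 1000 and 2 or more in 5576 (62.5%). The classes differed in more than *Pdgfra*, and these values stand beside every comparison that follows. Nuclei without *Pdgfra* had a median of 10621 UMIs against 16258, *Xist*, the transcript of the inactive X chromosome, in 65.5% of nuclei against 8.82%, and *Egfr* in 68.5% against 15.7%. The 6 OPC markers, *Pdgfra* itself included, summed to 1482 CPM against 3760 CPM, with *Olig1* at 530 against 641 CPM. Of the markers of mature oligodendrocytes, *Cnp* stood at 30.0 against 65.1 CPM and *Mbp* at 0.449 against 3.20 CPM, with *Mog* at 10 and *Mag* at 2 UMIs in all. The 6 neuronal markers came to 85.8 against 130 CPM, most of it from *Syt1* at 59.7 and 118 CPM. All the others stood the other way, *Rbfox3* at 13.8 against 1.41 CPM, *Gad1* at 3.63 against 1.95 CPM and *Snap25* at 8.31 against 7.88 CPM. Among these, *Slc17a7* and *Gad2* had only 14 and 13 UMIs in all. The 5 astrocyte markers stood at 9.36 against 16.8 CPM, the 5 microglial markers at 8.01 against 7.21 CPM, the 4 endothelial markers at 10.3 against 8.45 CPM, and the 5 pericyte or fibroblast markers at 0.524 against 0.467 CPM. Most of the astrocyte sum was *Slc1a2*, while *Aldh1l1* stood the other way at 1.05 against 0.165 CPM, as did *Gja1* with 6 UMIs in all. Against the endothelial sum, *Pecam1* stood at 4.04 against 5.65 CPM. The 6 G2/M genes summed to 1654 against 1930 CPM and the 6 S phase genes to 761 against 701 CPM. Of the S phase genes, *Pcna* and *Rrm2* were higher without *Pdgfra* and the rest lower, and of the G2/M genes only *Plk1* was higher. The part of depth, *Xist* class or these other transcripts in the ratios below was not tested, except where values within a class are given.

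Nuclei without *Pdgfra* carried more of the beta subunit *Cacnb2* and of the T-type pore *Cacna1g*, and less *Cacna1d*, *Cacng4* and *Scn1a*, while the summed level of the family was nearly equal. Over the 14316 genes with at least 100 UMIs in both classes together, 8.49% were at least 2 times higher without *Pdgfra* with an interval off 1, 6.41% were at least 2 times lower and 14.9% were either. Of the 25 members that passed the same filter, 3 were higher and 5 lower, or 32.0%, and 17 lay within 2 times. The median ratio of these members was 0.833, that of all genes tested 1.11, or 0.15 on the log2 scale, so a ratio of 1 lies slightly below the middle of all genes. With all ratios divided by that median, the same 3 and 5 members were called. The summed level was 1141 CPM (1128 to 1154) without *Pdgfra* and 1053 CPM (1047 to 1060) with 2 or more UMIs, a ratio of 1.08 (1.07 to 1.1).

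**Figure D2:**
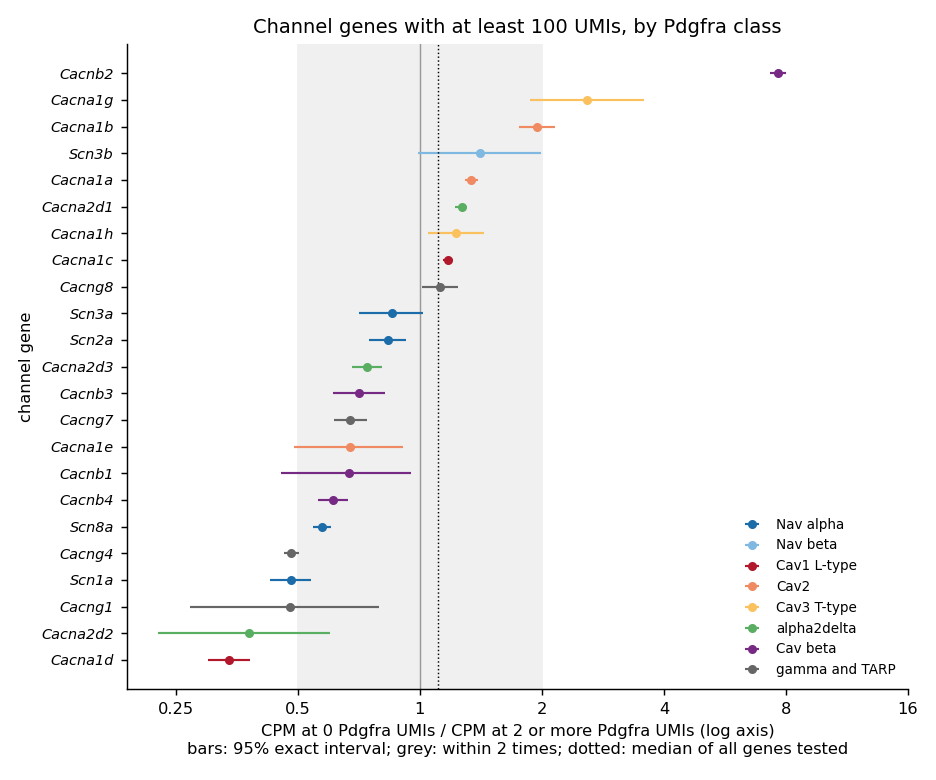
Ratio of the CPM in nuclei with 0 *Pdgfra* UMIs to that in nuclei with 2 or more, on a log axis, for channel genes with at least 100 UMIs, with 95% exact intervals and colors by subunit family. *Cacnb2* at 7.65 stands apart on the right, 5 genes lie left of the grey band of 0.5 to 2, and the dotted line marks the median of all genes tested, 1.11.

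*Cacnb2* stood at 212 CPM (206 to 217) without *Pdgfra* against 27.7 CPM (26.7 to 28.7) with 2 or more UMIs, a ratio of 7.65 (7.31 to 8.0). With nuclei thinned to 5000 UMIs and the classes formed again at that depth, a *Cacnb2* UMI was found in 37.0% of nuclei without *Pdgfra* and in 8.38% of those with 2 or more. Among the members it ranked 2 by CPM in nuclei without *Pdgfra*, between *Cacna1c* and *Cacna2d1*, and 10 in those with 2 or more. *Cacna1g*, the Cav3.1 T-type pore, was counted 66 and 98 times, at 2.47 CPM (1.91 to 3.14) against 0.953 CPM (0.773 to 1.16), a ratio of 2.59 (1.87 to 3.58), and in 1.31% against 0.458% of thinned nuclei. Just inside the limit of 2 times on this side was *Cacna1b* at 1.95 (1.76 to 2.15).

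On the lower side, *Cacna1d* stood at 11.5 CPM (10.3 to 12.9) without *Pdgfra* against 34.1 CPM (32.9 to 35.2), a ratio of 0.339 (0.300 to 0.381), and was found in 8.53% against 15.3% of thinned nuclei. *Cacng4* stood at 97.9 CPM (94.2 to 102) against 203 CPM (200 to 206), a ratio of 0.482 (0.463 to 0.502), and in 46.0% against 63.6% of thinned nuclei. *Scn1a* had 12.6 CPM (11.3 to 14.0) against 26.2 CPM (25.3 to 27.3), a ratio of 0.481 (0.428 to 0.539), and was found in 8.18% against 11.8%. These genes were thus found in a smaller share of nuclei without *Pdgfra*, but were not absent from them. The other lower genes were scarce. *Cacna2d2* was counted 20 and 204 times, 0.749 against 1.98 CPM, a ratio of 0.378 (0.226 to 0.599), and *Cacng1* 17 and 137 times, 0.637 against 1.33 CPM, a ratio of 0.478 (0.271 to 0.794). They were found in 0.669% against 1.34% and in 0.294% against 0.704% of thinned nuclei. Just inside the limit was *Scn8a* at 68.4 CPM (65.3 to 71.6) against 119 CPM (117 to 122), a ratio of 0.573 (0.545 to 0.602), found in 33.2% against 43.3% of thinned nuclei.

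Of the 6 most abundant genes of the family, *Cacng4* and *Cacnb2* were past 2 times, as given above, and 4 lay within. *Cacna1c* stood at 264 CPM (257 to 270) without *Pdgfra* and 225 CPM (222 to 228) with 2 or more UMIs, a ratio of 1.17 (1.14 to 1.21), and in 63.3% against 61.4% of thinned nuclei. *Cacna2d1* stood at 161 against 127 CPM, a ratio of 1.27 (1.22 to 1.31), in 47.4% against 43.8% of thinned nuclei, and *Cacna1a* at 139 against 103 CPM, a ratio of 1.34 (1.29 to 1.39), in 43.4% against 38.4%. *Cacnb4* had 22.9 against 37.5 CPM, a ratio of 0.611 (0.560 to 0.665), in 13.7% against 16.8% of thinned nuclei. *Cacna2d3* had 23.9 against 32.3 CPM, a ratio of 0.741 (0.680 to 0.807), in 10.6% against 13.7%, *Cacng7* 19.9 against 29.5 CPM, a ratio of 0.674 (0.613 to 0.739), in 11.5% against 13.6%, and *Scn2a* 16.6 against 19.9 CPM, a ratio of 0.833 (0.75 to 0.924), in 8.26% against 8.98%. The ratio was 1.41 for *Scn3b*, 1.23 for *Cacna1h*, 1.12 for *Cacng8*, 0.853 for *Scn3a*, 0.708 for *Cacnb3*, 0.673 for *Cacna1e* and 0.667 for *Cacnb1*. The intervals of *Scn3b* (0.990 to 1.99) and *Scn3a* (0.709 to 1.02) held 1. The 15 members under 100 UMIs in both classes were not compared, and the largest counts among them were 32 and 31 for *Cacng6*.

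By family, the sodium channel pores summed to 116 CPM (112 to 120) without *Pdgfra* against 173 CPM (171 to 176), a ratio of 0.671 (0.645 to 0.697). The ratio was 1.06 (1.04 to 1.09) for the L-type pores, 1.38 (1.33 to 1.43) for the Cav2 pores, 1.42 (1.23 to 1.63) for the T-type pores and 1.15 (1.11 to 1.19) for the alpha2delta subunits. The calcium channel beta subunits summed to 244 CPM (238 to 250) against 78.8 CPM (77.1 to 80.6), a ratio of 3.10 (3.00 to 3.20), and the gamma and TARP genes to 138 CPM (134 to 143) against 251 CPM (248 to 254), a ratio of 0.550 (0.532 to 0.570). Each of these 2 sums moved with its most abundant member over all nuclei, *Cacnb2* and *Cacng4*. Without *Pdgfra*, *Cacnb2* held 86.7% of the beta subunit UMIs (85.9 to 87.5) and *Cacnb4* 9.39%, whereas with 2 or more *Pdgfra* UMIs *Cacnb4* held 47.6% (46.5 to 48.7) and *Cacnb2* 35.1%. *Scn8a* held most of the sodium channel pore UMIs in both classes, with 58.8% and 68.9%.

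**Figure D3:**
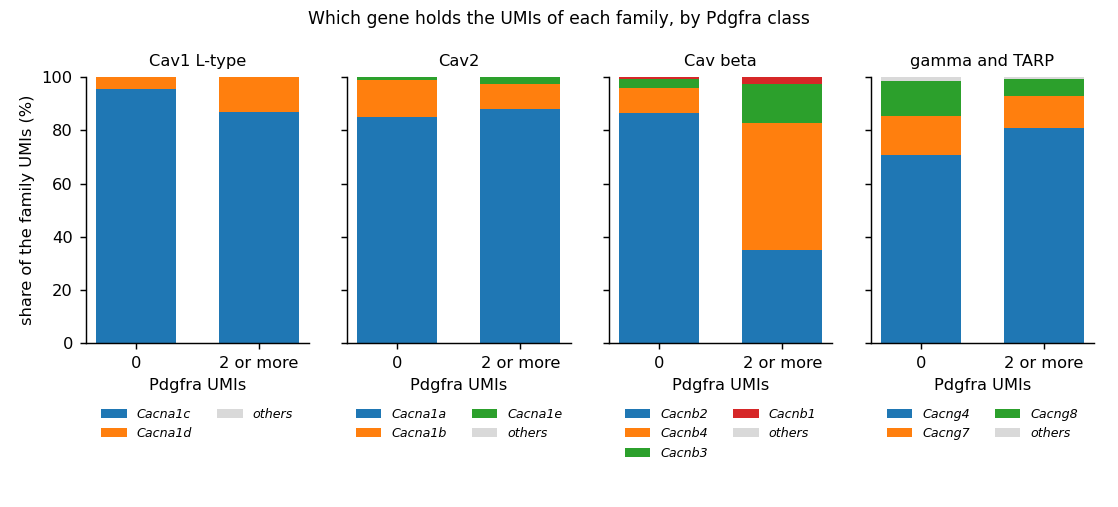
Share of the UMIs of each family, in percent, held by each of its genes in nuclei with 0 *Pdgfra* UMIs and with 2 or more, as stacked bars for 4 families, where genes under 2% in both classes are joined as others. The beta subunit bars differ most to the eye, with *Cacnb2* at 86.7% on the left and 35.1% on the right.

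Since a nucleus with fewer UMIs is also more likely to show no *Pdgfra*, levels were also taken in the classes formed after thinning to 5000 UMIs, which puts 3739 nuclei at 0 and 2839 at 2 or more. *Cacnb2* then stood at 152 CPM (146 to 157) in nuclei with no *Pdgfra* UMI, 39.6 CPM with 1, 22.8 with 2, 21.8 with 3 and 16.4 CPM (12 to 21.7) with 4 or more. The large step was thus between 0 and 1 UMI. *Cacng4* stood at 139 CPM (134 to 145) at 0 and at 193, 198, 220 and 223 CPM in the following steps, and *Scn8a* at 84.9 CPM and then at 108, 116, 121 and 124 CPM. *Cacna1d* stood at 19.1 CPM (17.2 to 21.2) at 0 and between 30.9 and 37.1 CPM in the other steps, and *Cacna1c* ran from 241 CPM at 0 to 208 CPM at 4 or more. Nuclei that hold *Pdgfra* RNA but show none at this depth remain in the class of 0. With the thinned classes of 0 and of 2 or more, no member with at least 100 UMIs passed the limit on the lower side. There the ratio was 0.550 for *Cacna1d*, 0.665 for *Cacng4* and 0.680 for *Scn1a*. On the higher side 2 members passed it, among them *Cacnb2* at 7.15. Among all genes, 4.73% were then called higher and 1.14% lower. At this depth *Cacna2d2*, *Cacng1* and *Cacna1g* were under the filter of 100 UMIs and could not be called. *Cacna2d2* stood at 1.3 CPM at 0 and at 2.4, 3.4 and 2.4 CPM at 2, 3, and 4 or more. *Cacng1* stood at 0.59 and then 1.7, 0.96 and 1.4 CPM, and *Cacna1g* at 2.6 and then 1.1, 0.48 and 1.0 CPM.

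**Figure D4:**
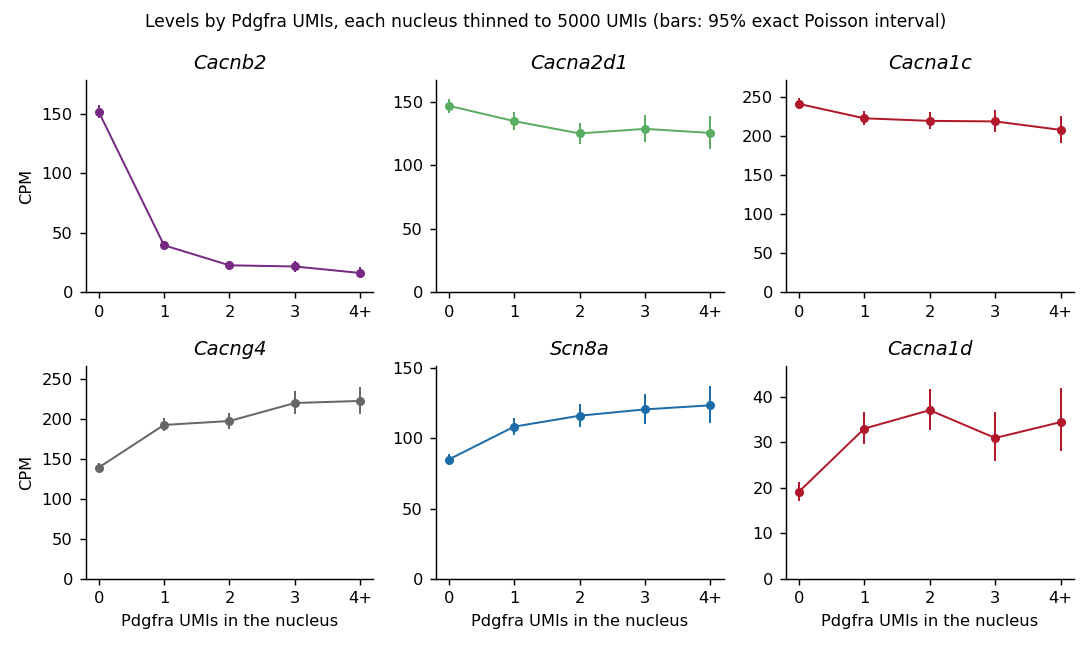
Level in CPM against the number of *Pdgfra* UMIs in the nucleus (0, 1, 2, 3, and 4 or more), after thinning each nucleus to 5000 UMIs, for 6 genes with 95% exact Poisson intervals and axes that start at 0. *Cacnb2* stands at 152 CPM in the first step and 39.6 in the second, and *Cacng4* at 139 and then 193 CPM.

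*Xist* divided the nuclei in another way. The OPCs were taken from pups of either sex, and 24.6% of the kept nuclei had a *Xist* UMI. Nuclei with neither *Pdgfra* nor *Xist* numbered 807, and 1534 had *Xist* without *Pdgfra*. Of the nuclei with 2 or more *Pdgfra* UMIs, 5084 had no *Xist* UMI and 492 had at least 1, and the latter had a median of 25567 UMIs, against 15772 for the former. Doublets were not called, and their part in the 492 nuclei was not tested.

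*Cacnb2* was highest in nuclei with *Xist* and no *Pdgfra*. Its level was 270 CPM there, 91.7 CPM in nuclei with both, 77.2 CPM in those with neither and 18.8 CPM in those with 2 or more *Pdgfra* UMIs alone. It was higher without *Pdgfra* in each *Xist* class, by 4.10 times (3.73 to 4.49) in nuclei without *Xist* and by 2.95 times (2.76 to 3.14) in nuclei with it. For *Cacna1g* the ratios were 2.57 (1.5 to 4.22) and 2.81 (1.43 to 6.01).

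The 3 abundant genes that were lower without *Pdgfra* had ratios farther below 1 among nuclei with *Xist*. There *Cacng4* stood at 66.1 CPM without *Pdgfra* against 174 CPM with 2 or more UMIs, a ratio of 0.381 (0.355 to 0.409), *Cacna1d* at 5.48 against 24.0 CPM, a ratio of 0.228 (0.180 to 0.287), and *Scn1a* at 4.40 against 18.6 CPM, a ratio of 0.236 (0.181 to 0.305). Among nuclei without *Xist* the ratios were 0.826 (0.781 to 0.872) for *Cacng4*, from 171 against 207 CPM, 0.719 (0.621 to 0.828) for *Cacna1d*, from 25.5 against 35.5 CPM, and 1.16 (1.01 to 1.32) for *Scn1a*, from 31.6 against 27.3 CPM. *Scn3a*, at 0.853 over all nuclei, had a ratio of 2.51 (2.07 to 3.04) without *Xist* and 0.133 (0.0724 to 0.229) with it, and *Cacnb4* 1.27 (1.14 to 1.41) and 0.413 (0.346 to 0.491). Of the 25 members, 8 had a ratio over 1 in both *Xist* classes, 8 had a ratio under 1 in both, 8 were over 1 without *Xist* and under 1 with it, and 1, *Cacna1c* at 0.964 and 1.19, the other way. This split was not counted over all genes, so it cannot be read as a trait of the channel genes. Of all genes tested, 4.86% were called higher and 1.25% lower among nuclei without *Xist*, and 5.12% and 6.93% among nuclei with it. Whether the ratios differ between the *Xist* classes was not tested, since there is 1 library.

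**Figure D5:**
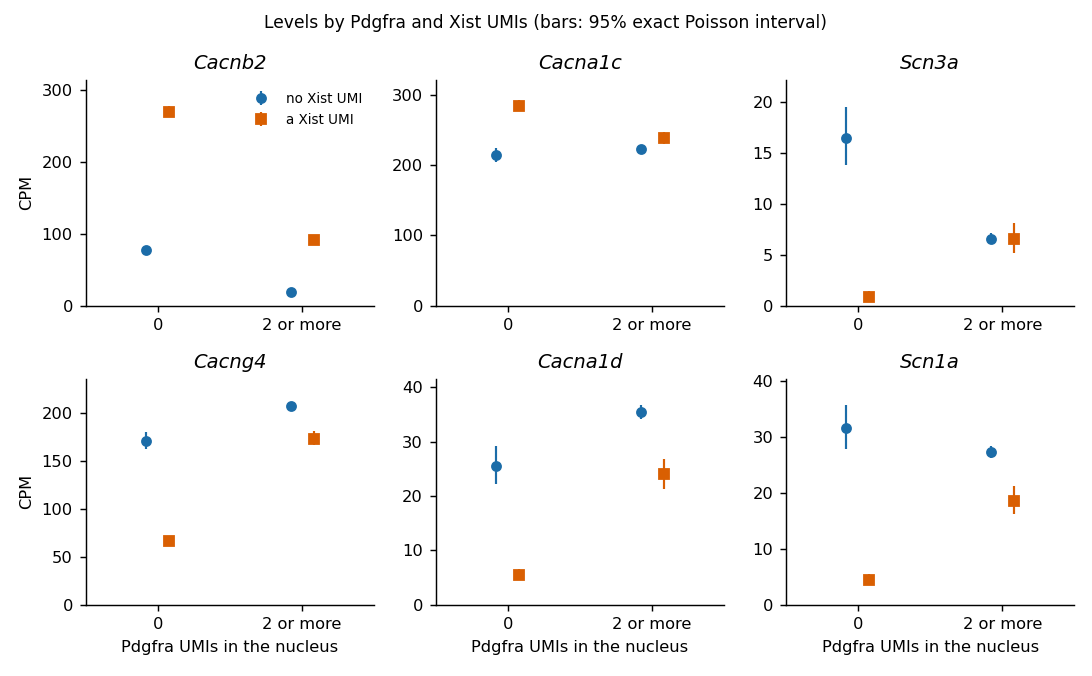
Level in CPM by *Pdgfra* class on the horizontal axis and by presence of a *Xist* UMI, shown as blue circles without and orange squares with *Xist*, for 6 genes with 95% exact Poisson intervals and axes that start at 0. For *Cacnb2* the highest point is that of nuclei with *Xist* and no *Pdgfra*, at 270 CPM, and for *Cacng4*, *Cacna1d* and *Scn1a* it is the lowest, at 66.1, 5.48 and 4.40 CPM.

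Within nuclei that had no *Pdgfra* UMI at 5000 UMIs, those with 2 or more *Cacnb2* UMIs (714 nuclei) were set beside those with none (2355). *Cacna1c*, the pore to which beta subunits bind, stood at 308 CPM (291 to 327) in the former and 216 CPM (208 to 225) in the latter. *Cacna2d1* had 196 against 131 CPM and *Cacna1a* 156 against 113 CPM. On the other side, *Cacng4* had 85.7 against 163 CPM, *Scn8a* 61.6 against 95.8 CPM, *Scn1a* 7.0 against 22.6 CPM, *Cacna1d* 10.1 against 24.0 CPM and *Cacnb4* 21.9 against 39.7 CPM. Nuclei with *Cacnb2* had *Xist* in 81.7% and nuclei without it in 26.1%. The thinned class of 0 holds 3739 nuclei, against 2341 before thinning, so it includes nuclei with *Pdgfra* UMIs in the full counts. The part of *Xist* and of these *Pdgfra* UMIs in the differences was not tested.

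Nuclei with 2 or more *Egfr* UMIs and no *Pdgfra* numbered 1125, and in them *Cacnb2* stood at 263 CPM, against 152 CPM in the 1216 nuclei without *Pdgfra* that had fewer *Egfr* UMIs. In the 111 nuclei with 2 or more UMIs of *Ralyl*, an RNA-binding protein gene, and no *Pdgfra*, *Cacnb2* stood at 78.4 CPM, *Scn1a* at 42.0 CPM and *Scn3a* at 23.0 CPM, against 218, 11.2 and 4.72 CPM for these 3 genes in the other nuclei without *Pdgfra*.

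Nuclei were also divided by depth, mitochondrial share and division, and here a gene was counted by its ratio alone, over the 14531 genes with at least 100 UMIs. Between the 2230 nuclei with the fewest UMIs and the 2229 with the most, 3 of 25 members were at least 2 times lower in the deeper nuclei, among them *Cacnb2* at a ratio of 0.387, with a median ratio of 0.887 over the 25, beside 5.82% of all genes. Between nuclei with over 5% and at most 5% mitochondrial UMIs, *Scn3a* was the 1 member past 2 times, lower at a ratio of 0.464, beside 0.654% of all genes lower and 0.578% higher. Between the 2230 nuclei with the smallest share of G2/M transcripts and the 2229 with the largest, *Cacng1* was higher in the latter at a ratio of 2.24, and 2 members were lower, among them *Cacna1e* at 0.390, beside 2.48% of all genes higher and 2.75% lower.

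The partners of these channels were listed and counted by the same rule. Of 47 partner genes 39 passed the filter, 1 was higher without *Pdgfra* and 11 were lower, or 30.8% in all, beside 8.49% higher, 6.41% lower and 14.9% either way over all genes tested. Of the 12 partners of sodium channels, the ubiquitin ligase gene *Nedd4l*, whose product removes sodium channels from the membrane, was higher at 136 against 55.4 CPM (ratio 2.45, 2.35 to 2.55). The adhesion genes *Cntn1* (754 against 2849 CPM, ratio 0.265) and *Nfasc* (0.494) and the fibroblast growth factor homolog *Fgf11* (0.426) were lower. Of the sodium leak channel complex, the pore gene *Nalcn* stood at 28.6 against 141 CPM, a ratio of 0.203 (0.189 to 0.219), and its scaffold *Unc80* at 25.4 against 73.5 CPM, a ratio of 0.346 (0.319 to 0.374), whereas the scaffold *Unc79* had a ratio of 0.935. Of the AMPA receptor subunits, which TARPs escort, all 3 that were compared were lower, *Gria2* at 164 against 343 CPM (ratio 0.477), *Gria3* at 75.9 against 324 CPM (0.234) and *Gria4* at 376 against 825 CPM (0.456). *Gria1* was counted 26 and 6 times, below the filter. Of the calcium stores and extrusion genes, the plasma membrane pumps *Atp2b2* (0.265) and *Atp2b4* (0.426) and the exchanger *Slc8a3* (0.446) were lower and 8 of the 11 tested lay within 2 times. None of the 9 tested regulators of calcium channels, among them the calmodulin genes, was past the limit, and *Gem*, a small GTPase that binds beta subunits, was nearest at 1.99 (1.49 to 2.64). All these partner ratios come from the classes formed before thinning. After thinning, the gap was smaller for each partner with levels taken. *Cntn1* stood at 1568 CPM at 0 *Pdgfra* UMIs and 3019 CPM at 4 or more, and *Nalcn* at 67.3 and 135 CPM. *Gria2* stood at 227 and 362 CPM, *Gria3* at 160 and 359 CPM and *Gria4* at 562 and 824 CPM. Thinned levels of the other partners were not taken.

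The members lie on 12 chromosomes in GRCm39, with 8 on chromosome 2 and 7 on chromosome 9. *Cacnb2* (positions 14607899 to 14994127) and *Cacnb4* (52318337 to 52566843) both lie on chromosome 2, where the median ratio of the 1084 genes tested was 1.22, and had ratios of 7.65 and 0.611. *Scn1a*, *Scn2a* and *Scn3a* lie on chromosome 2 as well, with ratios of 0.481, 0.833 and 0.853. *Cacna2d2* (chromosome 9, 107276811 to 107406543) had a ratio of 0.378, with a chromosome median of 1.06. *Cacna1d* and *Cacna2d3* share chromosome 14, whose median was 0.978, and *Scn8a* lies on chromosome 15, whose median was 0.875.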

How the data were processed

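1 library of nuclei from BB-p53n OPCs in culture was prepared with the 10x Genomics 3' kit for snRNA-seq, and per the labels these nuclei were isolated without the debris removal used for tissue. The authors aligned the reads to mm39 and called barcodes with Cell Ranger 8.0.1, and the deposited values are raw UMI counts per gene and barcode, made before their cutoffs on detected genes. The 10047 deposited barcodes hold 154375410 UMIs. Of these barcodes, 918 with under 2000 genes and 212 with over 8000 were left out. The paper lists 1954 BB-p53n OPC nuclei after its filtering, so the 8917 nuclei kept here are not the set it used. Of the nuclei kept here, 1954 had at most 5% mitochondrial UMIs. Whether these are the nuclei of the paper was not tested. Read depth per nucleus and the share of free RNA were not analysed here.

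From the deposited counts, UMIs were summed over nuclei and divided by the total UMIs, with 95% exact Poisson intervals for levels, exact binomial (Clopper-Pearson) intervals for shares, and exact conditional binomial intervals for ratios (Python 3.11.15, numpy 2.4.6, scipy 1.17.1). A gene with at least 100 UMIs in both *Pdgfra* classes together was called where its ratio was at least 2 or at most 0.5 with an interval off 1. PCR copies are removed by the molecular identifiers. The ratio and interval code was tested on simulated data. Genes were placed by identifier on GENCODE vM39 (GRCm39, the same build as mm39), where 33185 of 33696 matched, all 40 members among them. No nuclei were clustered and no doublets were called.

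The members, the partner lists and the marker lists were chosen with earlier results of these data known. Values are given for every member with at least 100 UMIs, apart from some genes that are counted but not reported here, and full values for the 12 with the highest CPM and those past 2 times. The alternatives were other cutoffs on genes, UMIs and mitochondrial UMIs, thinning, other totals and means, other *Pdgfra* classes, filters and limits, and removal of nuclei with *Xist*, *Egfr* or *Ralyl*. The values in nuclei with *Xist* alone were added after seeing the data.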

Additional observations from a re-analysis of the deposited data

Results flagged for a closer look

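The barcodes outside the cutoffs on detected genes entered no comparison, and channel UMIs were found in both groups above the 3 counts that a count of 0 allows. The 918 barcodes with under 2000 genes held 1943 channel UMIs, or 1106 CPM, and 21 of the 40 members had more than 3 UMIs there. The 212 barcodes with over 8000 genes held 11793 channel UMIs, or 1027 CPM, with 28 members above 3 UMIs. The summed level in the kept nuclei was 1076 CPM.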

How the results depend on the processing

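No paired analysis was possible because the comparison lies within 1 library, and the tumor samples that share replicate numbers were not analysed here. The number of members at 10 CPM or more was 15 or 16 under all alternatives that kept this limit, and 17 members reached 5 CPM. The count of members higher without *Pdgfra*, 3 as reported, was 1 after thinning to 3000 UMIs, 5 against 5 or more *Pdgfra* UMIs, without *Xist* nuclei or at 1.5 times, and 6 with no filter on low counts. The count of lower members, 5 as reported, was 0 after thinning to 5000 or 3000 UMIs or without *Xist* nuclei, 1 at 5% mitochondrial UMIs or less, 2 by the mean over nuclei and 2 without nuclei with 2 or more *Egfr* UMIs. The share of all genes called lower, 6.41% as reported, was 1.14%, 0.294%, 1.25%, 2.26%, 5.63% and 3.6% in that order, and the share called higher, 8.49% as reported, was 3.51%, 9.35%, 4.86%, 19.2% and 11.1% in the order of the higher counts. After thinning to 5000 UMIs, *Cacna1g*, *Cacna2d2* and *Cacng1* were under the filter of 100 UMIs, as given above. In nuclei with at most 5% mitochondrial UMIs these 3 genes had 50, 50 and 28 UMIs in all, so they could not be called there either. Equal or larger counts did not always hold the same members. With both a lower and an upper cutoff on UMIs per nucleus, the counts stayed at 3 and 5. There *Cacna1g*, *Cacna2d2* and *Cacng1* were not called, while *Cacna1b* was called higher and *Cacna1e* and *Cacnb4* lower. Without *Xist* nuclei, 2 of the 3 higher members were kept, and *Scn3a* and *Scn3b* were among those added. The cause of the other shifts was not tested. Under median scaling, which gave the same members, all genes split into 6.55% higher and 7.92% lower.

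The summed ratio, 1.08, was 1.07 and 1.03 after thinning to 5000 and 3000 UMIs, 0.994 at low mitochondrial share, 0.977 under median scaling, 1.05 without *Xist* nuclei and 1.04 without *Egfr* nuclei. *Scn1a* turned to 1.16 without *Xist* nuclei, and the cause was not tested. *Cacna1g* stood at 0.566 after thinning to 3000 UMIs, where it was under the filter of 100 UMIs, so this value rests on few counts. It kept a ratio over 1 under 15 of 16 alternatives. Over 16 alternatives *Cacnb2* kept a ratio of 2.95 to 11.2, *Cacna1d* of 0.228 to 0.719 and *Cacng4* of 0.381 to 0.826. With 1 library the spread between cultures is unknown, and members under 100 UMIs were too scarce to compare.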
